A study of Mus musculus with 8 samples.

Results

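In resting skeletal muscle the sarcoplasmic reticulum holds the calcium that drives contraction, and a fibre relaxes when SERCA pumps return that calcium to the store. The 10 genes described here are the relaxation side of this cycle: the pumps Atp2a1, Atp2a2 and Atp2a3, the small membrane proteins Sln and Pln that restrain the pumps, the calcium-binding proteins of the store Casq1, Casq2, Hrc and Srl, and the cytosolic calcium buffer Pvalb. They were chosen by symbol, and each of the 10 has 1 probe set with a single gene symbol among the 19938 genes compared. Soleus, a mostly slow calf muscle used in standing, came from male mice aged 5 months in the basal state. There were 4 Ts65Dn mice, a model of Down syndrome with an extra marker chromosome that carries the distal end of mouse chromosome 16 and the centromeric end of chromosome 17, so that these segments are present in 3 copies. The controls were 4 wild-type (WT) colony mice of strain B6EiC3SnF1/J, with a mixed B6 and C3H background. The marker chromosome also carries chromosome 17 genes outside the region matched to human chromosome 21, which limits Ts65Dn as a model. None of the 10 genes lies in a trisomic segment. Srl is on chromosome 16, but on the centromeric side of the segment.

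SERCA1, encoded by Atp2a1, is the pump of fast fibres, and SERCA2, from Atp2a2, that of slow fibres and heart. Sarcolipin (Sln) and phospholamban (Pln) are short single-pass membrane proteins that bind the pump and lower its calcium uptake, and sarcolipin also lets the pump split ATP without moving calcium, which produces heat. Calsequestrins, the histidine-rich calcium-binding protein (Hrc) and sarcalumenin (Srl) sit inside the store, while parvalbumin (Pvalb) binds calcium in the cytosol of fast fibres and speeds relaxation in rodents.

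Values are deposited log2 RMA values, 1 array per mouse, and a difference of 1 is a doubling. The arrays of the groups differed as a whole: the median of an array lay between 4.23 and 4.29 in Ts65Dn and between 4.37 and 4.56 in WT, and the interquartile range between 3.01 and 3.12 in Ts65Dn and between 2.62 and 2.93 in WT. WT arrays 2 and 3 had the narrowest ranges. The median log2 fold change over all genes was -0.10, and 0.08 once each array was centred on its median. A shift that depends on level was therefore also removed by level matching, in which a gene's deviation in an array is taken relative to the median deviation of the 100 genes nearest to it in mean level. Genes that mark skeletal muscle (Acta1, Ckm, Mb, Des, Ttn and Neb) averaged 11.42 to 11.55 in Ts65Dn arrays and 11.24 to 11.50 in WT arrays.

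The comparison asked whether messenger RNA for calcium removal and storage differed between Ts65Dn and WT soleus. Among the 10 genes Sln differed most, and the pump regulators Sln and Pln went opposite ways. Sln was 2.22-fold higher in Ts65Dn and Pln stood at 0.665 of its WT level. Casq2 differed as much as Pln, with log2 fold changes of 0.59 for Casq2 and -0.59 for Pln. Both muscle pumps, Hrc and Srl differed by less than 0.1 on the log2 scale. Of the 10 genes 0 passed limma's test in either direction at a Benjamini-Hochberg adjusted p under 0.05 over all 19938 genes, where 2.32% of genes were called higher and 2.94% lower. At an unadjusted p under 0.05 there was 1 higher, Sln, and 1 lower, Pln, where 12.3% of all genes were higher and 22.6% lower at that mark. The median log2 fold change of the 10 genes was 0.06. In whole muscle, fewer cells of a type and less RNA per cell cannot be told apart.

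**Figure D1:**
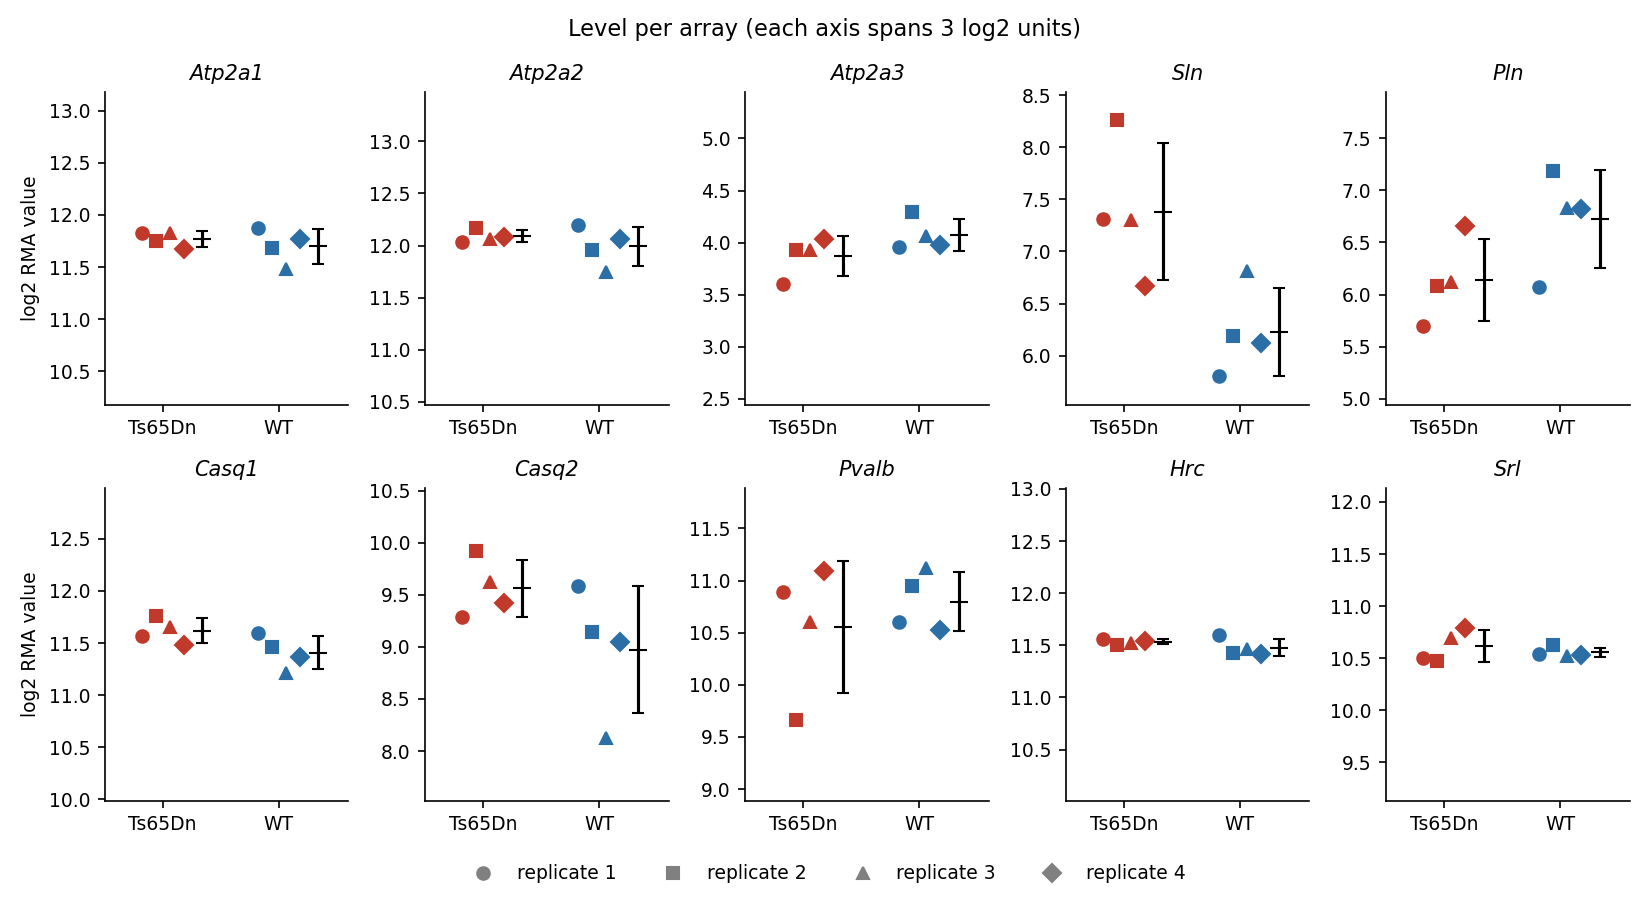
Log2 RMA value of each gene (y axis, each spanning the same number of log2 units) in the Ts65Dn and WT arrays (x axis), with 1 marker shape per replicate number and the mean ± SD as bars. The pumps, Casq1, Hrc and Srl spread by at most 0.45 log2 units within a group, whereas Sln, Pln, Casq2 and Pvalb spread by 1 log2 unit or more in at least 1 group. Atp2a1, Atp2a2, Casq1, Hrc and Srl lie near the top of the measured range, where a small spread is not read as steady expression.

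Sln gave the largest difference. Its values were 7.31, 8.26, 7.30 and 6.66 in Ts65Dn arrays 1 to 4, against 5.80, 6.19, 6.81 and 6.12 in WT arrays 1 to 4. Thus 3 of 4 Ts65Dn arrays were above the whole WT range, and Ts65Dn array 4 lay just below the highest WT array. The means were 7.38 ± 0.66 in Ts65Dn and 6.23 ± 0.42 in WT (SD, n = 4). The log2 fold change was 1.15, with a 95% interval of 0.47 to 1.84. The limma adjusted p was 0.0529, just above the threshold of 0.05, while the smallest adjusted p of any gene was 0.0449. These close values hide a wide gap in rank: 1339 of the 19938 genes had a smaller limma p than Sln. Only 0.532% of genes had a log2 fold change at least as high. The exact two-sided permutation test over the 70 splits of the arrays gave p = 0.0571 for Sln, where 0.0286 is the smallest it can give.

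The size of the Sln difference depended on the scaling and its direction did not. The 100 genes nearest in level had a median log2 fold change of 0.36, and level matching left 0.81 for Sln (limma adjusted p = 0.244). With each array centred on its median, Sln passed, at 1.34 (limma adjusted p = 0.0443), as did 4.57% of all genes in the higher direction. Without WT arrays 2 and 3 the value was 1.42 (limma adjusted p = 0.199), and without Ts65Dn array 2, the array with the most Sln, it was 0.86 (limma adjusted p = 0.104). Across the 19 settings in which limma was run, the log2 fold change of Sln stayed between 0.81 and 1.42.

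Pln, the regulator of SERCA2 in heart and slow muscle, pointed the other way. It measured 5.70, 6.09, 6.12 and 6.65 in Ts65Dn arrays 1 to 4, against 6.07, 7.19, 6.83 and 6.82 in WT arrays 1 to 4. The groups overlapped because WT array 1 was as low as the middle Ts65Dn arrays. The other 3 WT arrays were above all Ts65Dn arrays. The mean was 6.14 ± 0.39 in Ts65Dn and 6.73 ± 0.47 in WT (SD, n = 4). This gave a log2 fold change of -0.59, with a 95% interval of -1.14 to -0.036 (limma adjusted p = 0.126). The exact two-sided permutation test gave p = 0.114 for Pln, and the same value for Casq1 and for Casq2.

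Genes near Pln in level had a median log2 fold change of 0.37, so that level matching widened the difference to -0.88 (limma adjusted p = 0.121). Pln passed in 1 setting, without WT array 1, at -0.81 (limma adjusted p = 0.0416), and 8.28% of all genes were called lower in that setting. Without WT arrays 2 and 3 the log2 fold change was -0.31.

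The promoter of Pln is shown because Pln has the lowest log2 fold change of the 10, and that of Casq2, described further on, because it has the highest after Sln. Both are from RefSeq, build GRCm38.p6, plus strand, from 250 bases before to 50 bases after the start of the gene, at chr10:53337436-53337735 for Pln and chr3:102086165-102086464 for Casq2. Capitals mark E-boxes (CANNTG, the site of myogenic factors) and, in Casq2, a match to the MEF2 consensus. The table held promoters for 7 of the 10 genes and none for Atp2a2, Sln and Srl.
Pln: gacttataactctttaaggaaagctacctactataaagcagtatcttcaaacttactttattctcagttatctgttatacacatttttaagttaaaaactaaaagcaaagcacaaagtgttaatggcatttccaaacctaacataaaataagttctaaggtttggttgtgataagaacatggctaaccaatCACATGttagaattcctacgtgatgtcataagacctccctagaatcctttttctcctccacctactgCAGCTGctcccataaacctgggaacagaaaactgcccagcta
Casq2: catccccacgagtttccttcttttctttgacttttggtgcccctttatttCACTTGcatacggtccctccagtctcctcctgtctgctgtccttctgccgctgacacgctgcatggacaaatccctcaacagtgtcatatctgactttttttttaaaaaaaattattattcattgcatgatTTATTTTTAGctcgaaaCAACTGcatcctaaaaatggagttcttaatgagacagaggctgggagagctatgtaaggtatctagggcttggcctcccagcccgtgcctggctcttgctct
Pln had 2 E-boxes, beginning 59 bases before and 8 bases after the start, and 0 matches to MEF2. Casq2 had 2 E-boxes, 200 and 52 bases before the start, and 1 MEF2 match at 69 bases before it. These matches did not overlap. Searched on both strands, an E-box occurred in 72.3% of all 32851 promoters in the table and a MEF2 match in 3.19%. A match describes letters and not binding, and these data do not measure binding.

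Subtracting Pln from Sln within each array cancels any shift that both probe sets share. The difference was 1.61, 2.17, 1.18 and 0.011 in Ts65Dn arrays 1 to 4, against -0.27, -1.001, -0.021 and -0.70 in WT arrays 1 to 4. The groups did not overlap, although Ts65Dn array 4 and WT array 3 nearly met. The mean was 1.24 ± 0.92 in Ts65Dn and -0.50 ± 0.44 in WT (SD, n = 4). The groups differed by 1.74 (exact permutation test, two-sided, p = 0.0286, which is the lower limit of this design, and 0.114 adjusted over the 4 within-array differences computed). This value joins the opposite Sln and Pln differences given above (1.15 and -0.59) and is no separate evidence of them. Groups that did not overlap were found for 22.7% of single genes, which is not the share for a difference between a pair of genes. With cyclic loess and with level matching the difference was 1.69 in each case and the exact permutation p 0.0571. Because 2 probe sets are not on 1 absolute scale, the sign within an array does not say which transcript was more abundant.

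**Figure D2:**
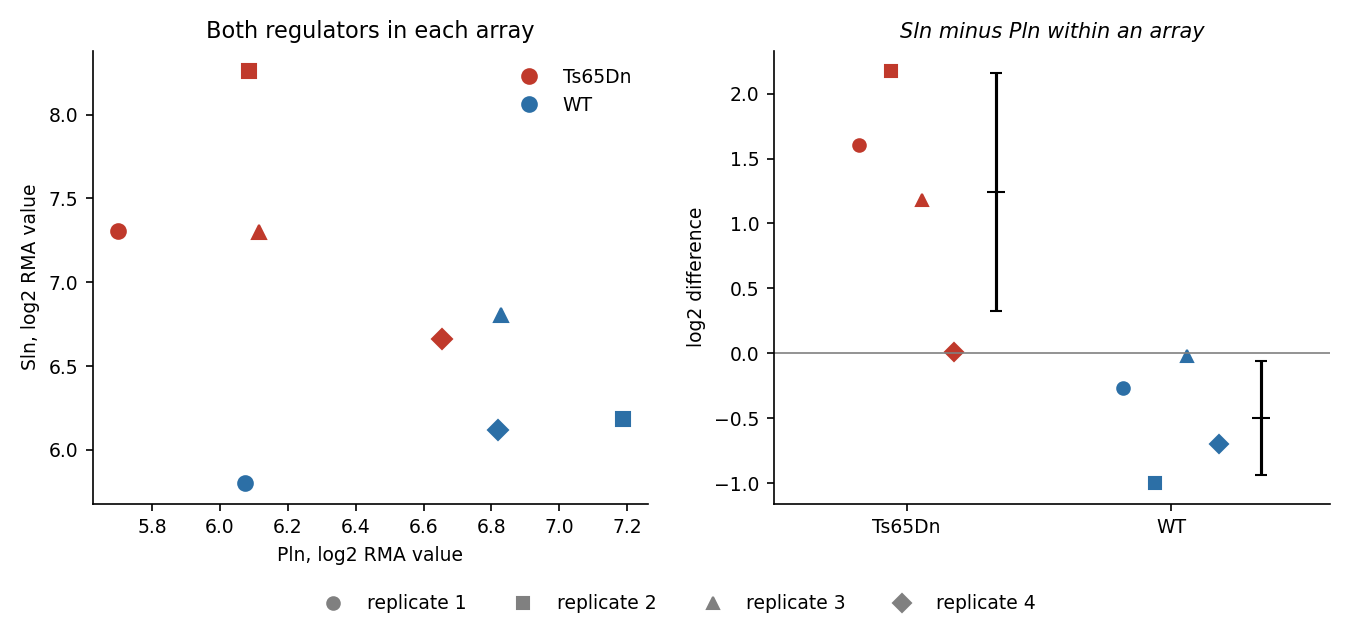
Left, Sln (y axis) against Pln (x axis) in each array, both as log2 RMA values. Right, the log2 difference Sln minus Pln within each array, with the mean ± SD as bars. The 4 Ts65Dn arrays lie between 0.011 and 2.17 and the 4 WT arrays between -1.001 and -0.021.

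The pumps themselves gave nearly the same values in both groups. Atp2a1 was 11.82, 11.75, 11.83 and 11.67 in Ts65Dn arrays 1 to 4, against 11.88, 11.68, 11.48 and 11.77 in WT arrays 1 to 4. All Ts65Dn arrays lay inside the WT range. The log2 fold change was 0.07 with a 95% interval of -0.20 to 0.34 (limma adjusted p = 0.700).

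Atp2a2 had 12.04, 12.17, 12.07 and 12.08 in Ts65Dn arrays 1 to 4, against 12.20, 11.96, 11.75 and 12.06 in WT arrays 1 to 4. Again every Ts65Dn array was within the WT range. The SD was 0.06 in Ts65Dn and 0.19 in WT, and the log2 fold change 0.10, with a 95% interval of -0.18 to 0.37 (limma adjusted p = 0.586). WT array 3 was the lowest array for both pumps. Atp2a1 and Atp2a2 lay at the 99.7th and 99.9th percentile of level over all genes, near the top of the measured range, so small differences there are not read as equal levels. Without WT arrays 2 and 3 the log2 fold changes were -0.053 for Atp2a1 and -0.041 for Atp2a2.

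The fast and the slow pump were also set against each other within an array. The limit just given, for values near the top of the measured range, holds for their difference too. Atp2a1 minus Atp2a2 was -0.32 ± 0.11 in Ts65Dn and -0.29 ± 0.02 in WT (SD, n = 4). The groups differed by -0.029 (exact permutation test, p = 0.571). The Ts65Dn arrays spread more, from -0.42 to -0.21, against -0.32 to -0.27 in WT. Relative to the slow pump, Pln was -5.95 ± 0.38 in Ts65Dn and -5.26 ± 0.61 in WT, which differed by -0.69 (exact permutation test, p = 0.114, n = 4 each).

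Atp2a3 encodes SERCA3, a pump of blood, endothelial and other non-muscle cells. It was the only one of the 10 genes below the median level of all genes. It read 3.60, 3.93, 3.93 and 4.03 in Ts65Dn arrays 1 to 4, against 3.96, 4.29, 4.07 and 3.97 in WT arrays 1 to 4. The log2 fold change was -0.20 (limma adjusted p = 0.299). The 100 genes nearest in level had a median of -0.29, and level matching gave 0.08. Among marker genes of cells that carry SERCA3, 2 of 5 endothelial genes were called higher, Kdr and Emcn, where 2.32% of all genes were. The endothelial mean was 6.13 to 6.44 in Ts65Dn and 5.12 to 5.75 in WT arrays. Of 5 T cell genes 0 were called in either direction (2.94% of all genes were called lower), with means of 3.44 to 3.75 in Ts65Dn and 3.80 to 4.17 in WT. The T cell genes were dim, with a median level at the 25th percentile of all genes. Their median log2 fold change was -0.49, and -0.27 with level matching. Of 4 platelet genes 0 were called, with 5.12 to 5.83 in Ts65Dn and 4.86 to 5.59 in WT. Their part in the Atp2a3 value was not tested.

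Calsequestrin holds most of the calcium bound in the store, as Casq1 in fast fibres and as both forms in slow fibres. Casq2, the cardiac and slow-fibre form, was 9.29, 9.92, 9.62 and 9.43 in Ts65Dn arrays 1 to 4, against 9.58, 9.14, 8.13 and 9.05 in WT arrays 1 to 4. Of the Ts65Dn arrays 2 were above the WT range, and WT array 3 was by far the lowest. The means were 9.56 ± 0.27 in Ts65Dn and 8.97 ± 0.61 in WT (SD, n = 4). Their difference, the log2 fold change, was 0.59 with a 95% interval of -0.0078 to 1.19 (limma adjusted p = 0.147). WT array 3 carried much of that value: without it the log2 fold change was 0.31 (limma adjusted p = 0.301), without WT arrays 2 and 3 it was 0.25, and with level matching 0.38.

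Casq1 was 11.57, 11.76, 11.65 and 11.48 in Ts65Dn arrays 1 to 4, against 11.60, 11.46, 11.21 and 11.36 in WT arrays 1 to 4. The upper 2 Ts65Dn arrays exceeded the WT range. The log2 fold change was 0.21, with a 95% interval of -0.07 to 0.48 (limma adjusted p = 0.248), and level matching kept it at 0.20. Casq1 lay at the 99.5th percentile of level over all genes, and the limit given for the pumps holds for it too. Casq1 minus Casq2 within an array was 2.05 ± 0.18 in Ts65Dn and 2.43 ± 0.46 in WT, which differed by -0.38 (exact permutation test, p = 0.143, n = 4 each).

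Hrc, which binds calcium in the store and also contacts the pump, had the smallest spread of the 10 genes in Ts65Dn. It had 11.56, 11.50, 11.53 and 11.54 in Ts65Dn arrays 1 to 4, against 11.60, 11.43, 11.46 and 11.42 in WT arrays 1 to 4. The log2 fold change was 0.06 with a 95% interval of -0.17 to 0.29 (limma adjusted p = 0.711). Srl, a glycoprotein of the store that stabilises the pump, was 10.50, 10.47, 10.69 and 10.79 in Ts65Dn arrays 1 to 4, against 10.55, 10.62, 10.53 and 10.53 in WT arrays 1 to 4. The Ts65Dn arrays bracketed the WT range, with 2 above it and 2 below. Its log2 fold change was 0.06 (limma adjusted p = 0.731), and -0.014 with level matching. Hrc and Srl lay at the 99.5th and 98.4th percentile of level over all genes. As for the pumps, small differences or a small spread there are not read as equal levels.

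**Figure D3:**
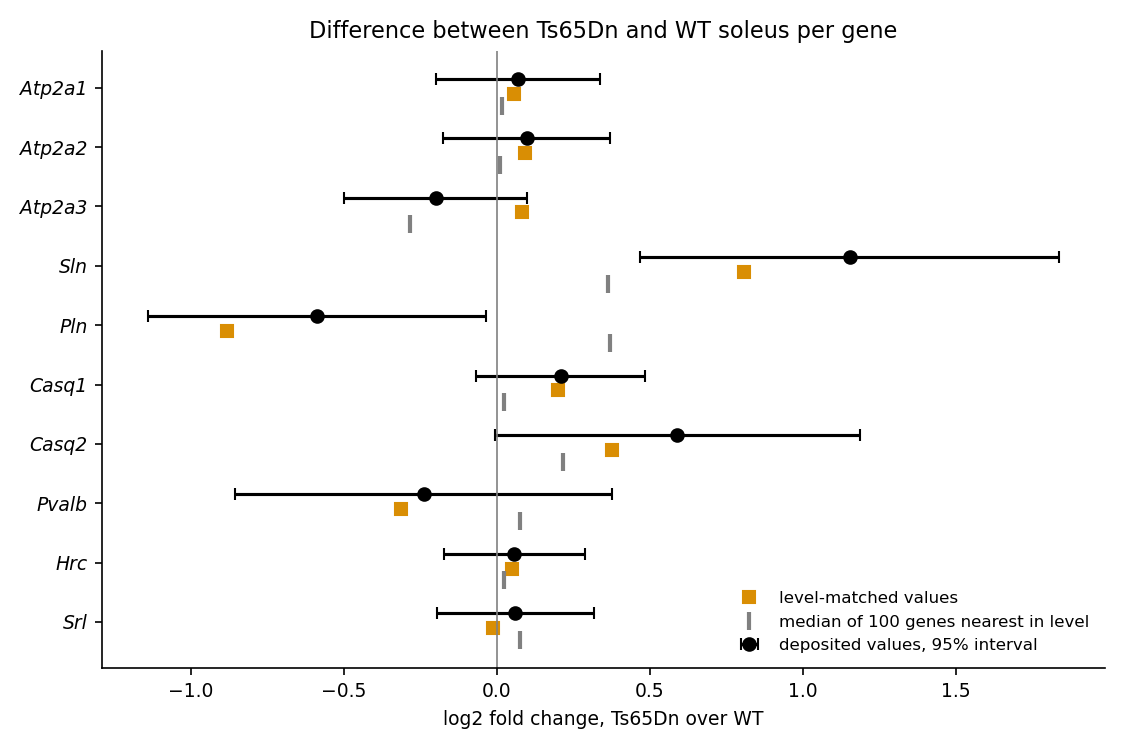
Log2 fold change of Ts65Dn over WT (x axis) for the 10 genes (y axis), with limma's 95% interval, beside the level-matched value and the median of the 100 genes nearest in level. The interval excludes 0 for Sln and Pln, before adjustment over all genes, and the level-matched values keep Sln at 0.81 and Pln at -0.88.

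Pvalb varied more between Ts65Dn mice than between the groups. The values were 10.89, 9.66, 10.60 and 11.09 in Ts65Dn arrays 1 to 4, against 10.60, 10.95, 11.12 and 10.52 in WT arrays 1 to 4. Ts65Dn array 2 was the lowest of all 8 arrays. The SD was 0.63 in Ts65Dn and 0.28 in WT, and 1.24% of all genes had at least as large an SD in Ts65Dn. The log2 fold change was -0.24 with a 95% interval of -0.86 to 0.38 (limma adjusted p = 0.547), and 0.06 without Ts65Dn array 2.

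Fibre-type genes were read beside these values, since pumps, calsequestrins, Pvalb, Sln and Pln differ between fast and slow fibres. Among 11 fast-fibre genes limma called 0, and 0 reached an unadjusted p under 0.05, a mark at which 12.3% of all genes were higher and 22.6% lower. Their median log2 fold change was 0.12. The fast-fibre gene with the smallest p was Actn3, the fast-fibre alpha-actinin, which differed by 1.38 on the log2 scale (limma adjusted p = 0.148) and by 0.78 without Ts65Dn array 4. Among 10 slow-fibre genes it likewise called 0, with 0 at that unadjusted mark and a median of 0.05. Both lists sit at the top of the measured range, with a median level at the 99.5th percentile of all genes for the fast list and the 99.8th for the slow list, and the same limit on small differences holds there as for the pumps. The slow-fibre mean was 11.66 to 11.79 in Ts65Dn and 11.56 to 11.72 in WT arrays, and the fast-fibre mean 10.23 to 11.10 in Ts65Dn and 10.19 to 10.43 in WT.

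The upper end of the fast-fibre range, 11.10, was Ts65Dn array 4. Ts65Dn array 1, at 10.71, was also above the WT arrays, which reached 10.43. Myh4, the myosin heavy chain of the fastest (type IIb) fibres, was 6.76, 6.25, 6.22 and 10.52 in Ts65Dn arrays 1 to 4, against 6.44, 6.04, 6.33 and 5.89 in WT arrays 1 to 4. Ts65Dn array 4 was thus more than 3 log2 units above every other array, and it was also the highest for Actn3, at 9.26. The same array had the least Sln and the most Pln and Pvalb among the Ts65Dn arrays. Without it the log2 fold change was 1.39 for Sln (limma adjusted p = 0.0991), -0.76 for Pln (limma adjusted p = 0.115) and 0.24 for Myh4.

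Myh7, the slow myosin heavy chain, had a log2 fold change of 0.26, Myh2 one of 0.12 and Myh1 one of 0.26, all with limma adjusted p-values of 0.282 to 0.459. Without WT array 3 these were 0.12, 0.061 and 0.15. Ts65Dn array 2, low in Pvalb, had the lowest Myh1 of its group, at 10.40, where the other Ts65Dn arrays had 10.87 to 11.38. The genes with the smallest p in the list read as slow-fibre, Mybpc1 and Actn2, were at 0.21 each. Whether each gene of that list is limited to slow fibres was not tested. The part of fibre composition in the Sln, Pln and Pvalb values was not tested.

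**Figure D4:**
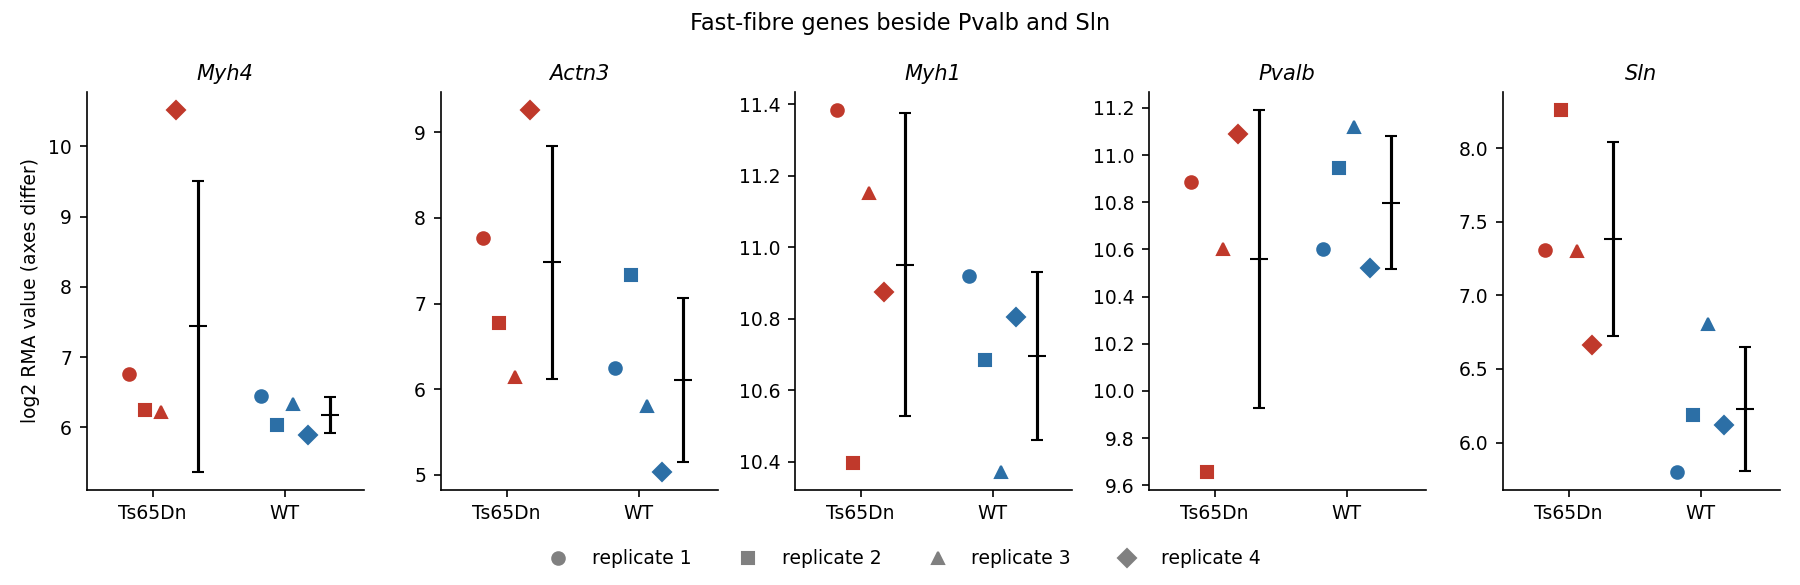
Log2 RMA value (y axis, scales differ between panels) of 3 fast-fibre genes, Myh4, Actn3 and Myh1, beside Pvalb and Sln in the Ts65Dn and WT arrays (x axis), with 1 marker shape per replicate number and mean ± SD bars. Ts65Dn replicate 4 is far above all others for Myh4, at 10.52, and Ts65Dn replicate 2 is lowest for Pvalb, at 9.66.

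Pln and Sln are also made by cardiac and vascular cells, so genes of these were read too. Of 5 smooth muscle genes 0 were called, with means of 5.47 to 5.84 in Ts65Dn and 5.43 to 5.63 in WT arrays. Of 5 cardiac genes 0 were called, with means of 5.310 to 5.503 in Ts65Dn and 5.498 to 5.766 in WT. Over all genes 2.32% were called higher and 2.94% lower. All 5 cardiac genes had a negative log2 fold change in the deposited values, with a median of -0.25, where the median over all genes was -0.10. With level matching the cardiac median was -0.11, and Nppa turned positive, at 0.22. Of the smooth muscle genes, 4 had a positive log2 fold change. Their part in the Sln and Pln values was not tested.

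A list of other genes, read as regulators of the pump, held 2 of the 3 calls found in the calcium lists. Of its 13 measured genes, 1 was called higher and 1 lower, where 2.32% of all genes were higher and 2.94% lower. Whether each gene of the list acts on SERCA was not tested. The median log2 fold change of the 13 was 0.27, and 0.02 with level matching. Camk2d, a calmodulin-dependent kinase that phosphorylates phospholamban in heart, was 7.80, 7.92, 7.44 and 7.65 in Ts65Dn arrays 1 to 4, against 7.01, 6.75, 5.84 and 6.48 in WT arrays 1 to 4. Every Ts65Dn array exceeded every WT array, where the groups did not overlap, in either direction, for 22.7% of all genes. Camk2d rose by 1.18 on the log2 scale (limma adjusted p = 0.0456), with 0.82 after level matching (limma adjusted p = 0.0553) and 0.96 without WT arrays 2 and 3 (limma adjusted p = 0.174).

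Dhrs7c, a short-chain dehydrogenase of the sarcoplasmic reticulum, was 8.52, 8.62, 8.61 and 8.67 in Ts65Dn arrays 1 to 4, against 9.11, 9.21, 9.09 and 9.19 in WT arrays 1 to 4. The groups were well apart, with a small spread in each. Dhrs7c fell by 0.55 (limma adjusted p = 0.0456), and it passed with level matching, at -0.76 (limma adjusted p = 0.0445). Its log2 fold change was -0.36 with each array centred on its median (limma adjusted p = 0.0618). Camk2b had 0.63 and Tmx1, a thioredoxin-like protein of the reticulum, 1.37, with limma adjusted p-values of 0.0594 and 0.0737. Level matching gave 0.34 for Camk2b and 1.27 for Tmx1. Tmx1 leaned on WT array 3, at 3.71 where the other WT arrays had 5.31 to 6.09. Without that array its log2 fold change was 0.85, and without WT arrays 2 and 3 it was 0.61, where Camk2b had 0.38.

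Routes that carry calcium across the surface membrane gave the third call. Of 16 measured genes of calcium entry, extrusion and mitochondrial uptake 0 were called higher and 1 lower, beside 2.32% higher and 2.94% lower over all genes. Their median log2 fold change was 0.18, and 0.00033 with level matching. Atp2b2, a plasma membrane calcium pump, was 4.22, 4.18, 4.63 and 4.24 in Ts65Dn arrays 1 to 4, against 4.78, 5.09, 5.20 and 4.80 in WT arrays 1 to 4. It fell by 0.65 (limma adjusted p = 0.0458) and lay below the median level of all genes. Level matching gave -0.39 (limma adjusted p = 0.103). The sodium-calcium exchanger Slc8a3 was at 0.73 on this scale (limma adjusted p = 0.0529), the store calcium sensor Stim2 at 0.52 (limma adjusted p = 0.0556) and the plasma membrane pump Atp2b1 at 0.51 (limma adjusted p = 0.0665). Without WT arrays 2 and 3 Slc8a3 was at 0.47, and with level matching Atp2b1 was at 0.25.

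**Figure D5:**
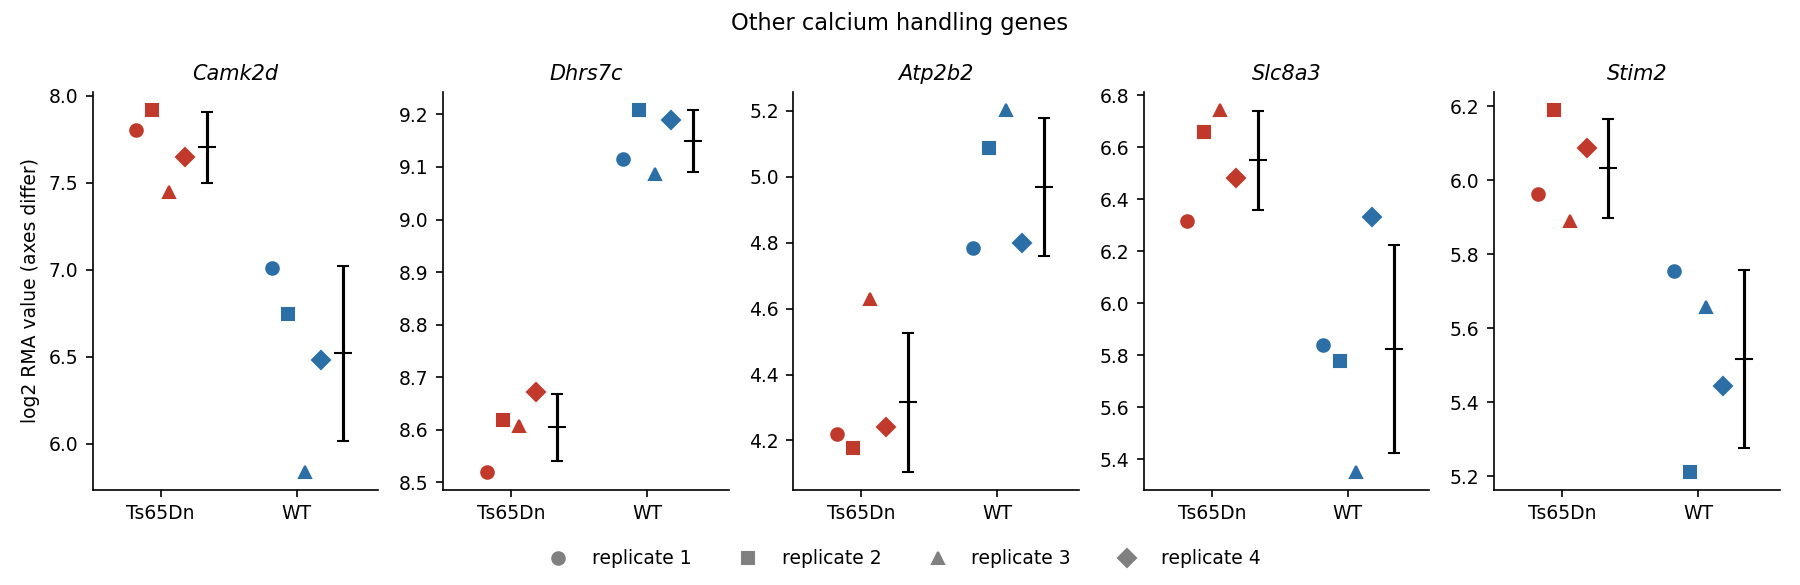
Log2 RMA value (y axis, scales differ between panels) of Camk2d, Dhrs7c, Atp2b2, Slc8a3 and Stim2 in the Ts65Dn and WT arrays (x axis), with 1 marker shape per replicate number and mean ± SD bars. Camk2d, Dhrs7c and Atp2b2 passed the test. Ts65Dn and WT arrays overlap only for Slc8a3. These genes were picked for a small p within their lists, and the groups did not overlap for 22.7% of all genes.

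Release genes and other calcium-binding proteins held 0 calls. Of 16 measured genes of calcium release, 2 were higher and 1 lower at an unadjusted p under 0.05 in limma, where 12.3% of all genes were higher and 22.6% lower. The calcium channel subunits Cacnb1 and Cacna1s had log2 fold changes of 0.38 and 0.36, Ryr1, the release channel, 0.30, and the dim Ryr2 -0.36, with limma adjusted p-values of 0.0801 to 0.188. Level matching brought Cacnb1 to 0.12, Cacna1s to 0.23, Ryr1 to 0.096 and Ryr2 to -0.052. Without WT array 3 Ryr1 was at 0.18 and Cacna1s at 0.22. Of 14 other calcium-binding genes 4 were higher at an unadjusted p under 0.05 in limma and 0 lower, beside the same 12.3% and 22.6%. These were calumenin (Calu, 0.48), reticulocalbin 2 (Rcn2, 0.63), calreticulin (Calr, 0.52) and sorcin (Sri, 0.61), all as log2 fold changes, with limma adjusted p-values of 0.0840 to 0.101. All 4 were smaller with level matching, at 0.33 for Calu, 0.37 for Rcn2, 0.27 for Calr and 0.47 for Sri. Without WT array 3 Calu was at 0.30 and Rcn2 at 0.40, and without WT arrays 2 and 3 Calr was at 0.20 and Sri at 0.25.

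Genes whose pattern over the 8 arrays was most like that of 4 of the genes were sought by Pearson's r, as a description. The search ran over the 9969 genes above the median level, and the 3 with the highest r are given. For Sln they were Cmbl (r = 0.942), Rbp4 (r = 0.924) and Fhl2 (r = 0.924), with log2 fold changes of 0.78, 1.47 and 0.57. For Pvalb they were Cggbp1 (r = 0.930), BC029722 (r = 0.924) and Chmp6 (r = 0.921). Atp2a1 was most like Coa5 (r = 0.964), Fdft1 (r = 0.962) and Got1 (r = 0.959), and Atp2a2 most like Gtf2a1 (r = 0.974), Tmbim1 (r = 0.973) and Gyg (r = 0.971). These r values include the difference between the groups and whatever shifts the arrays share. They are the highest of many, so their size follows in part from the choice. The same holds for the direction of the log2 fold changes of the genes listed for Sln.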

How the data were processed

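Soleus RNA of 4 Ts65Dn and 4 WT mice was measured on 1 array per mouse. The authors used Affymetrix Expression Console 1.1 and RMA, per the submitters' processing notes, and the deposited values were read as log2 from their range. The genome build is not given in the sources used here. Of 35556 probe sets, 21789 had 1 symbol, 1621 several and 12146 none. Symbols were updated by Entrez identifier through RefSeq (GRCm38.p6) for 21698. Per gene the probe set with the highest mean was used (19938 genes).

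The test was limma's (version 3.58.1 in R 4.3.3; lmFit, then eBayes), two-sided, with no covariate. 4 differences within an array were compared by exact permutation. Python 3.11.15, pandas 2.3.3 and matplotlib 3.10.9 were used. The fit was tested on simulated data. The members, lists and alternatives were chosen with earlier results of these data known. Named genes were the members, up to 4 per calcium list and 2 per fibre list with the smallest p, Myh7, Myh2, Myh1 and Myh4, and the 3 genes most correlated with each of 4 members. Of 149 list genes 134 were measured. With 4 arrays per group, their number limits the precision.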

Additional observations from a re-analysis of the deposited data

Results flagged for a closer look

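Of the 76 groups of 4 arrays examined for 1 value far from the others, 3 stood out by Dixon's ratio (the gap to the nearest array over the range of the group), where chance alone flags about 1 group in 20. In Ts65Dn, Myh4 had a ratio of 0.8735 because of array 4, at 10.52 where the other arrays were at 6.22 to 6.76. In Ts65Dn, Atp2b2 had a ratio of 0.860 because of array 3, at 4.63, so that the array with the highest value still lay below WT. In WT, Calu had a ratio of 0.951 because of array 3, at 8.66 where the other WT arrays were at 9.38 to 9.41. Without WT array 3 the log2 fold change of Calu was 0.30. None of the 10 relaxation genes and none of the 4 within-array differences met this mark.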

How the results depend on the processing

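The directions of Sln, Pln, Casq1 and Casq2 held in all 19 settings run with limma. The small differences of the others turned: Atp2a1 (-0.053) and Atp2a2 (-0.041) without WT arrays 2 and 3, Atp2a3 with quantile normalization (0.031), cyclic loess (0.092) and level matching (0.081), Hrc with cyclic loess (-0.0057), and Srl with quantile normalization (-0.023), cyclic loess (-0.068) and level matching (-0.014). Leaving out single arrays gave -0.0054 to 0.13 for Atp2a1, -0.42 to 0.061 for Pvalb, -0.00049 to 0.11 for Srl, -0.81 to -0.44 for Pln and 0.86 to 1.39 for Sln. The number of the 10 genes called was 1 with each array centred on its median (Sln, 1.34) and 0 to 1 over single arrays left out (Pln without WT array 1). Sln minus Pln was 1.69 with cyclic loess and 1.69 with level matching, and 1.43 to 2.15 over single arrays left out, where its exact permutation p was 0.0571 without any 1 WT array. Atp2a1 minus Atp2a2 ranged from -0.065 to 0.0055 and Casq1 minus Casq2 from -0.52 to -0.17. For Casq1 minus Casq2 the exact permutation p was 0.0286 without WT array 1, against 0.143 with all arrays. That 0.0286 is unadjusted and is the lowest p the test can give with 1 array left out.

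Over all genes limma called 1049, 462 higher and 587 lower. The number was 142 with cyclic loess, 90 with level matching, 436 among genes above the median level, 236 with array weights, 1 without WT arrays 2 and 3, and 0 to 2865 over single arrays left out. Centring gave 911 higher and 79 lower, cyclic loess 107 and 35, level matching 74 and 16, array weights 159 and 77, and genes above the median level 294 and 142. With quantile normalization limma called 0, with 4369 genes at an unadjusted p under 0.05. The replicate number as a block gave 0 calls, with 7014 at an unadjusted p under 0.05, and left Sln at a limma adjusted p of 0.0535 and Pln at one of 0.0671. Arrays with the same replicate number shared little (r of deviations from the group means 0.030, 0.012, 0.091 and 0.070), and not every array correlated best with its own number. Camk2d, Dhrs7c and Atp2b2 passed in 8 and 9 of 19 and in 5 of 18 settings, the main one included. Atp2b2 and Atp2a3 were too dim for the filter on level. The cause of these changes was not tested.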

Other observations

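Ts65Dn arrays 2 and 4 differed from each other in several of the genes above. Array 2 had the most Sln (8.26), Casq2 (9.92) and Atp2a2 (12.17) of the Ts65Dn arrays and the least Pvalb (9.66). It also had the least Mybpc2, a fast-fibre myosin-binding protein chosen for mention after its values were seen, at 5.37, where the other Ts65Dn arrays had 7.60 to 8.26 and the WT arrays 7.32 to 8.21. Array 4 had the most Myh4 (10.52), Actn3 (9.26) and Pvalb (11.09) of the Ts65Dn arrays and the least Sln (6.66) and Casq1 (11.48). These are values of single mice, and no test was made of them.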
